A study of Homo sapiens with 8 samples.

Results

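Ribosome footprints were measured on 56 DNA repair genes of 7 pathways in OVCAR3 cells, a human high-grade serous ovarian cancer line. The genes were taken by name from the 7 pathways, and no threshold on a measured value was used. The list was nonetheless chosen with earlier results of these data known. The merged gene annotation of the files, lifted to GRCh37, held 20165 gene regions, and 55 of the 56 genes matched a region. ERCC5 matched none, and the region of LIG4 held no coding sequence, so 54 genes could be tested in each comparison. By pathway, the tested genes comprised 14 of homologous recombination, 11 of the Fanconi anaemia pathway, 3 of mismatch repair, 8 of nucleotide excision repair, 7 of base excision repair, 5 of end joining and 6 of damage signalling.

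The 8 Ribo-seq libraries formed 4 groups of 2 and belonged to 2 experiments that shared no library. In the siRNA experiment, siRNA at 30 nM was given to unmodified OVCAR3 cells, either a control (siControl) or one directed at OARD1 (siTARG1). OARD1 encodes TARG1, a hydrolase that removes ADP-ribose from proteins. In the RACK1 experiment, cells carried a doxycycline-inducible pTRIPZ shRNA against endogenous RACK1, a ribosomal protein, and re-expressed an HA-tagged form under the same inducer. That form was wild type in the RACK1-WT group and lacked its ADP-ribosylation sites in the RACK1-Mut group. Both RACK1 lines were drug-selected pools and received 1 µg/ml doxycycline, and all cells were harvested 48 h after treatment began. The study asked how the ADP-ribosylation of RACK1 affects translation. A footprint count rises with the amount of an mRNA and with the number of ribosomes on each copy, and these could not be told apart here because no RNA-seq was analysed. In bulk cultures, fewer cells of a kind and less RNA per cell cannot be told apart either.

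DNA repair pathways divide the work by the kind of lesion. Homologous recombination copies a broken end from the sister chromatid, end joining ligates broken ends directly, and the Fanconi anaemia pathway unhooks crosslinks between strands at stalled forks. Mismatch repair and the excision pathways replace wrong or damaged bases, and signalling kinases tie these steps to the cell cycle. Homologous recombination is often defective in high-grade serous ovarian cancer, which is why these genes are followed in its cell lines.

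Coding-sequence counts ranged from 3100947 to 6604190 per library, and the repair genes together took 0.421% to 0.499% of them. OARD1 had normalised counts of 121 and 69.1 in siControl against 5.83 and 6.75 in siTARG1, or 6.51% of control by DESeq2 (adjusted p = 9.31e-11). In the RACK1 experiment OARD1 lay between 109.4 and 124 in all 4 libraries. Levels were set as coding footprints per kilobase of coding sequence and per 1000000 coding counts of the library. The level of RACK1 was 4792 and 4903 in RACK1-WT and 3735 and 3616 in RACK1-Mut (log2 fold change -0.42, DESeq2 adjusted p = 1.34e-08). These counts do not separate endogenous from re-expressed RACK1. RACK1 was also called lower in siTARG1, at 3004 and 3339 against 3492 and 3695 in siControl (log2 fold change -0.25, DESeq2 adjusted p = 0.00297). All 11 ovarian epithelial markers measured held at least 10 counts in every library, with a summed level of 4671 to 8515. By DESeq2, 7 of these 11 genes were called in siTARG1, 2 higher and 5 lower, against a background of 16.4% of all genes (7.18% higher and 9.19% lower). The lowest sums were those of the siTARG1 libraries (4671 and 5082, against 7099 and 6981 in siControl), and their part in the results below was not tested. Among markers of other cells, CD3E, MS4A1 and CDH5 were at 0 counts in all 8 libraries. Others were detected, and in every library 1 or 2 of 5 leukocyte genes and 1 or 2 of 5 fibroblast genes held at least 10 counts. The summed levels of leukocyte, endothelial and fibroblast markers stayed at or below 15.3, 0.338 and 9.8.

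Knockdown of TARG1 was accompanied by changes in a minority of the repair genes, in both directions. DESeq2 called 9 of the 54 genes at an adjusted p under 0.05, which is 16.7%, against a background of 16.4% of all 12056 genes tested. Of these, 7 rose (NBN, WRN, FANCC, MSH6, UNG, PRKDC and TP53BP1), which is 13.0% of the 54 (background 7.18%). The other 2 fell (XRCC4 and XRCC5), which is 3.70% (background 9.19%). Over both directions the share of called repair genes was near that of all genes. The share called higher lay above its background and the share called lower lay below, and neither difference was tested. An unadjusted p under 0.05 was found for 16 of the 54 genes (background 26%). The median log2 fold change was 0.11 over the 54 genes and 0.00315 over all genes, and 32 of the 54 lay above 0. Both siTARG1 libraries lay above both siControl libraries for 23 repair genes (background 31.2%) and below both for 10 (background 31.4%), and the groups overlapped for 21. The study's methods describe the sequencing samples as biologically independent, while the labels do not name separate cultures, so the p-values measure the spread between 2 libraries a group.

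Few of the calls were kept when 1 library was left out, which leaves an arm of 1 library whose spread is assumed to be that of the other arm. Without siControl replicate 1 the number of calls was 2, without siControl replicate 2 it was 1, without siTARG1 replicate 1 it was 1, and without siTARG1 replicate 2 it was 2. XRCC5 was called in 3 of these 4 fits, WRN in 2 and XRCC4 in 1. No fold change of the 9 genes changed sign. edgeR's quasi-likelihood test called 18 of the 54 repair genes, including all 9 of DESeq2's calls (background 28.8%), and called 15 of the 54 higher (background 13.4%).

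**Figure D1:**
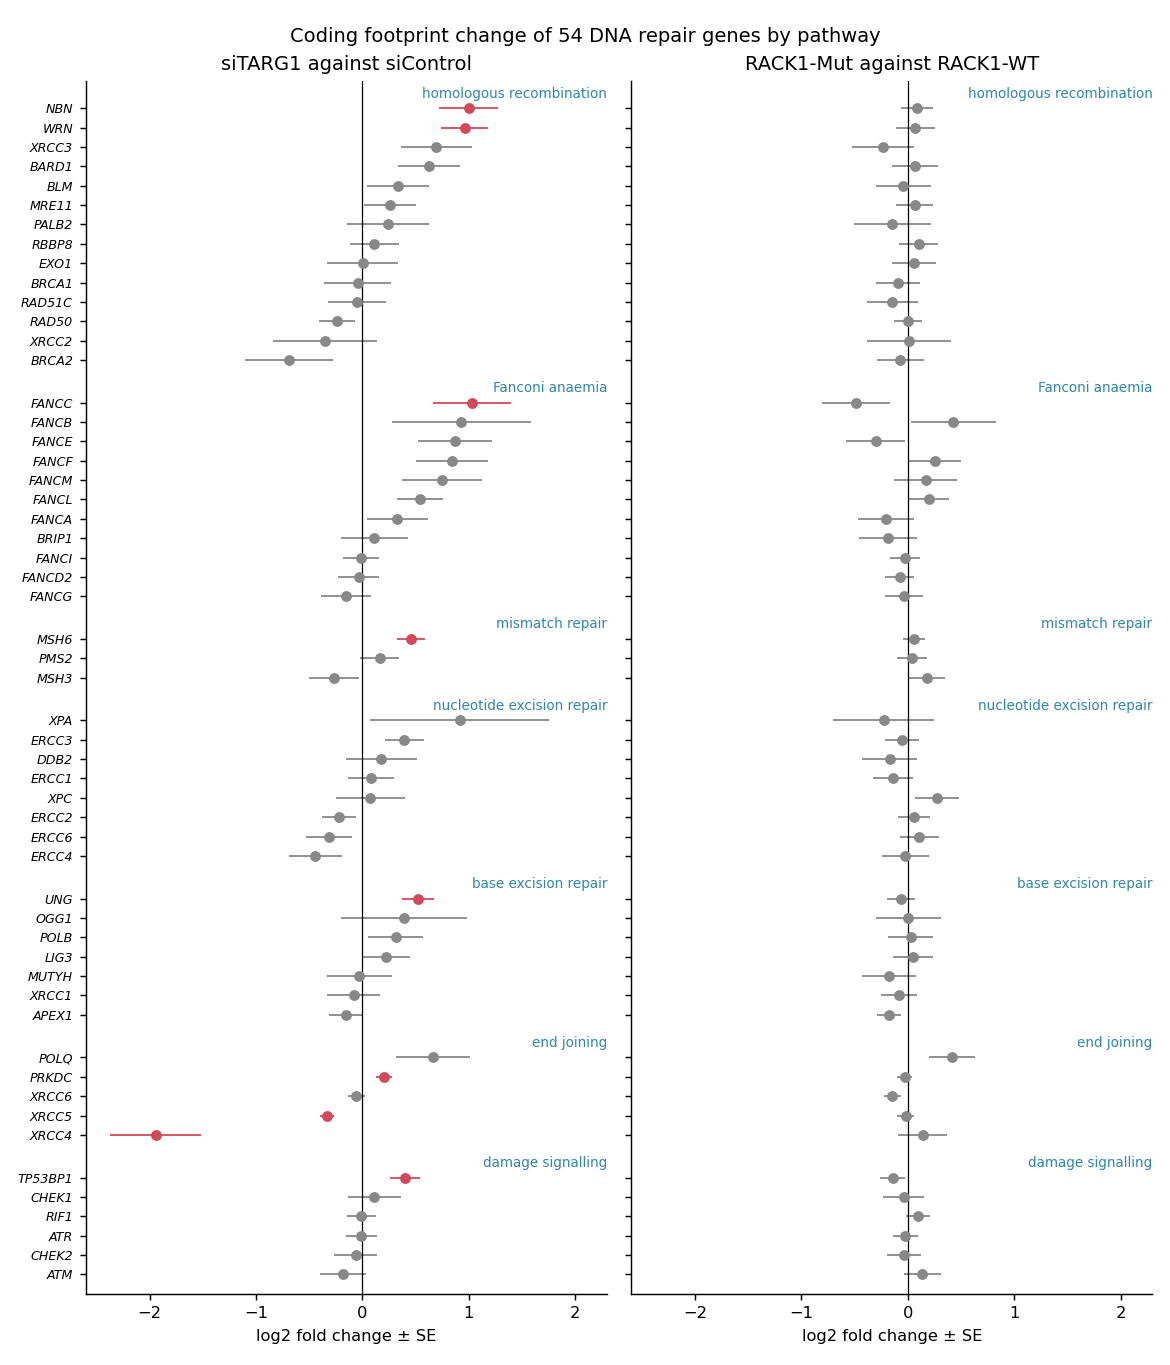
Log2 fold change of coding footprints (horizontal axis) with its DESeq2 standard error (bars) for 54 DNA repair genes, grouped by pathway, in siTARG1 against siControl (left) and RACK1-Mut against RACK1-WT (right); red marks an adjusted p under 0.05. The left panel spans -1.94 for XRCC4 to 1.03 for FANCC with 9 red points, whereas the right panel has none and stays between -0.48 and 0.43.

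End joining held 3 of the 9 calls among its 5 tested genes (background 16.4%), and these moved in opposite directions. XRCC4 is the scaffold of the ligase that seals the broken ends. Its normalised counts were 77.3 and 84.6 in siControl and 26.6 and 14.6 in siTARG1, from 88, 71, 32 and 13 counted footprints. XRCC4 had the largest fall of the 54 repair genes (log2 fold change -1.94, SE 0.43, DESeq2 adjusted p = 0.000103), and the siTARG1 libraries lay below both control libraries. Left-out libraries moved its log2 fold change between -2.47 and -1.60.

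XRCC5 and XRCC6 encode the Ku heterodimer, which binds broken ends first. XRCC5 counts were 3876 and 3931 in siControl and 3051 and 3151 in siTARG1, so that the groups stood apart. XRCC5 fell to 79.4% of control (log2 fold change -0.33, SE 0.07, DESeq2 adjusted p = 3.18e-05). Its partner XRCC6 had counts of 1850.0 and 1745 against 1719 and 1742, a log2 fold change of -0.06 that did not pass the test (DESeq2 adjusted p = 0.735). PRKDC, the DNA-dependent protein kinase recruited by Ku, rose from 3258 and 3060.0 to 3620.0 and 3659 (log2 fold change 0.20, SE 0.07, DESeq2 adjusted p = 0.0287). This was the smallest of the 9 called changes. POLQ, the polymerase of microhomology-mediated end joining, had counts of 52.7 and 46.5 against 84.1 and 73.1. Its groups did not overlap, but its log2 fold change of 0.66 (SE 0.35) did not pass in DESeq2 (adjusted p = 0.198).

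XRCC4 also differed from the other repair genes in its 3′ UTR. Every 7-mer was searched for, on the transcript strand, in the longest annotated 3′ UTR of each gene, and the one ranked first for the genes called lower was TGAACAT (the first 7-mer below). It occurred in 31.7% of the genes called lower and in 13.6% of the other genes (15.3% of all). For the genes called higher, TGAATAT ranked first (the second 7-mer below), at 39.3% against 19.0% of the others (20.4% of all). Both were chosen from the same siTARG1 values, so no test is given. The first 7-mer occurred in 6 of the 54 repair genes (11.1%) and the second in 15 (27.8%), and 5 genes held both. XRCC4 was the only repair gene with the first and without the second, and its 545-base 3′ UTR held the first at 2 places within 21 bases. Short 3′ UTR matches are the sites through which small RNAs pair by their seed. Pairing with the siRNAs was not tested, and their sequences were not used here.

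Examples of the sites are shown for XRCC4, the gene that fell furthest, and for other genes that held either 7-mer and were not called lower. BARD1, ERCC4, CHEK1, RIF1 and TP53BP1 held the same 7-mer as XRCC4. The part of the 7-mer in the fall of XRCC4 was not tested. Not every carrier is shown. The 7-mer is in capitals and the 3′ UTR sequence on either side in lower case, from the GRCh37 annotation of GENCODE.
XRCC4, chr5:82649466-82649494, plus strand, both copies: attcTGAACATtgatgttTGAACATttta
BARD1, chr2:215593369-215593397, minus strand: attataccagaTGAACATttcaaattgaa
ERCC4, chr16:14045227-14045255, plus strand: gtataaaaaggTGAACATatgagatattg
CHEK1, chr11:125525867-125525895, plus strand: aaaattactgtTGAACATcttaaatattt
RIF1, chr2:152331929-152331957, plus strand: ttaagtaaaatTGAACATttttatttgaa
FANCF, chr11:22646195-22646223, minus strand: gtgttattactTGAATATagaatatatag
FANCL, chr2:58386611-58386639, minus strand: tcttgacttctTGAATATatctggactgg

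None of the other 5 carriers of the first 7-mer was called lower by DESeq2. Their log2 fold changes were 0.62 for BARD1, -0.44 for ERCC4, 0.11 for CHEK1, 0.40 for TP53BP1 and -0.01 for RIF1, and each of them also held the second. Of these, TP53BP1 alone was called, and it rose, while ERCC4 was lower in both siTARG1 libraries without passing the test. Over all genes the median log2 fold change was -0.24 for the 1075 with the first only and 0.19 for the 1689 with the second only. It was -0.09 for the 733 with both and 0.00264 for the 8351 with neither. Both 7-mers were chosen from these same fold changes, so these medians are no separate evidence. The 10 repair genes with the second only had a median of 0.40, and 6 of them lay above 0. NBN, with 2 copies, and WRN, with 3, were called and rose, while RAD50, also with 2 copies, had a value of -0.24 and BRCA2 of -0.69. Most repair genes, 38, held neither 7-mer and had a median of 0.11. FANCC, MSH6, UNG, PRKDC and XRCC5 were called and carried neither.

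**Figure D2:**
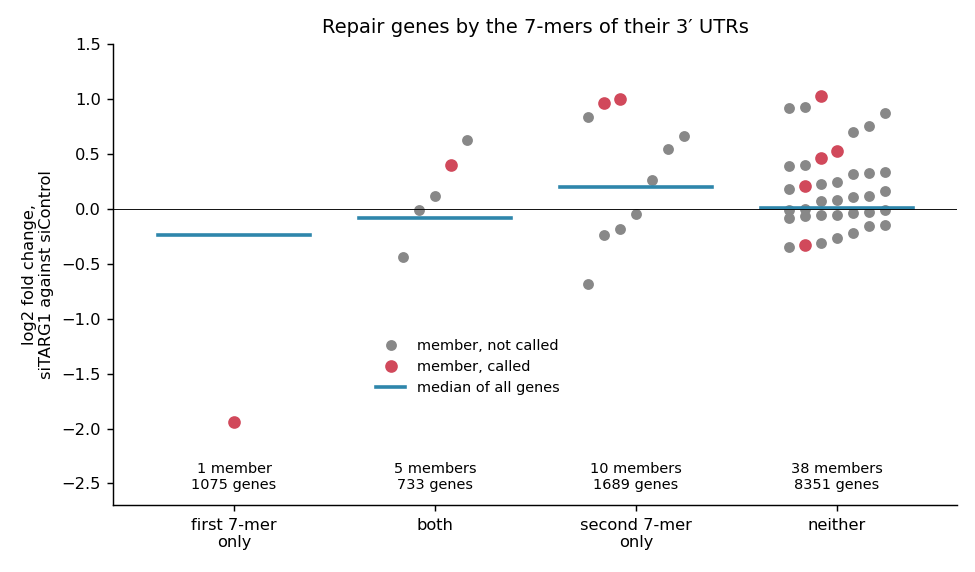
Log2 fold change in siTARG1 against siControl (vertical axis) of the 54 repair genes (points, red where called) by whether their longest 3′ UTR holds TGAACAT (first 7-mer) or TGAATAT (second 7-mer), with the median of all genes of each class as a blue line. XRCC4, at -1.94, is the single repair gene of the first class, while 5 of the 9 called genes sit in the class with neither 7-mer. Both 7-mers were chosen from the same fold changes, so the blue lines are no separate evidence.

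Homologous recombination held 2 calls among 14 genes (background 16.4%), NBN and WRN, and both rose close to 2-fold. NBN joins MRE11 and RAD50 in the complex that senses breaks and activates the ATM kinase. Its normalised counts were 65.0 and 76.3 in siControl and 133 and 148 in siTARG1. Both siTARG1 libraries lay well above the controls, with a log2 fold change of 1.00 (SE 0.28, DESeq2 adjusted p = 0.00362). The other subunits did not pass the test, MRE11 at 0.26 (SE 0.25) and RAD50 at -0.24 (SE 0.17). WRN, a RecQ-type helicase and exonuclease that acts on replication and recombination intermediates, had counts of 127 and 116 against 259.7 and 211. It rose by 0.96 on the log2 scale (SE 0.22, DESeq2 adjusted p = 0.000251). BLM, a related helicase, had counts of 80.0 and 82.3 against 102 and 102, a log2 fold change of 0.34 (SE 0.29) that did not pass.

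The genes best known from hereditary breast and ovarian cancer were not called. BRCA1 had counts of 80.9 and 76.3 against 69.9 and 83.2, and the groups overlapped (log2 fold change -0.04, SE 0.32). BRCA2, which loads the recombinase on single-stranded DNA and was the least abundant of the pathway per length, had counts of 48.3 and 72.7 against 41.6 and 32.6, with a log2 fold change of -0.69 (SE 0.41, DESeq2 adjusted p = 0.279). Both siTARG1 libraries lay below both controls for BRCA2. Over the 14 genes the median was 0.18 on the log2 scale, with 9 above 0, 7 whose siTARG1 libraries both lay above the controls (background 31.2%) and 2 whose libraries both lay below (background 31.4%).

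**Figure D3:**
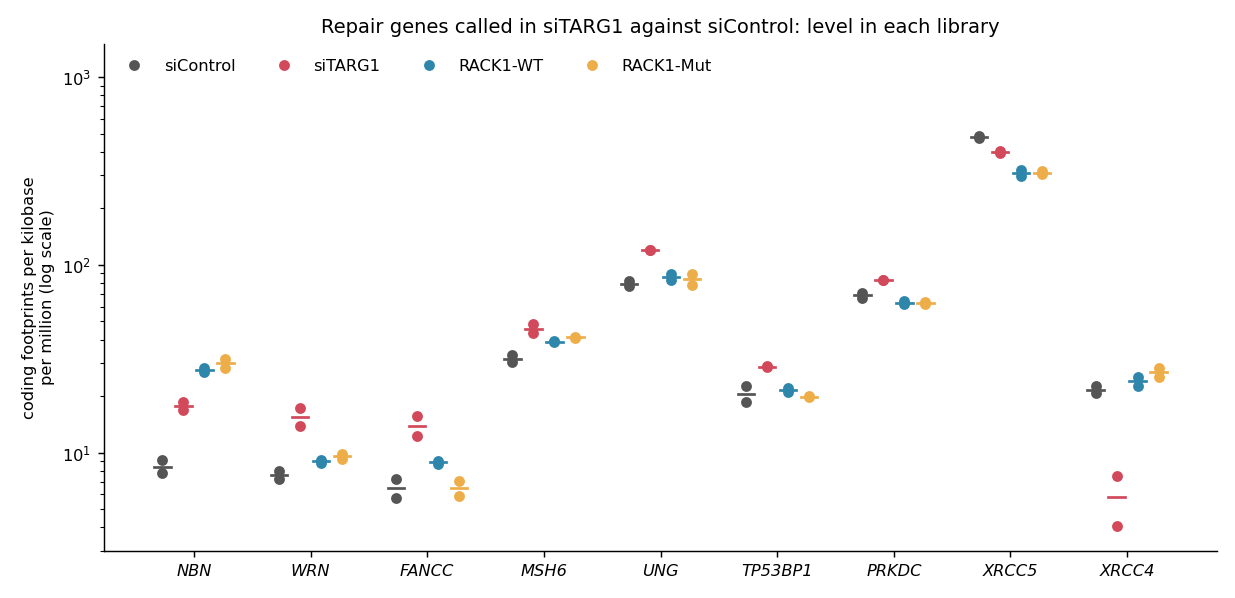
Level in coding footprints per kilobase and 1000000 coding counts (log scale) in each of the 8 libraries (points) with the group mean (bars) for the 9 repair genes called in siTARG1 against siControl. The siTARG1 points of XRCC4, at 7.52 and 4.09, lie below all other libraries, while those of NBN, at 16.8 and 18.5, lie above siControl and below both RACK1 groups.

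In the Fanconi anaemia pathway 1 of 11 genes was called (background 16.4%). Most of these genes encode the core complex, the ubiquitin ligase that marks FANCI and FANCD2 at a crosslink. FANCC, one of its subunits, rose from counts of 44.8 and 35.8 to 91.6 and 73.1 (log2 fold change 1.03, SE 0.37, DESeq2 adjusted p = 0.0327). It was the largest rise among the repair genes. FANCC was not called with exon counts in place of coding counts, nor with the replicate number added to the model. FANCE, FANCF, FANCL (the catalytic subunit), FANCM (the translocase that recruits the complex), FANCB and FANCA had log2 fold changes of 0.87, 0.84, 0.54, 0.75, 0.93 and 0.33, and none was called in DESeq2. For these 6 genes and FANCC, both siTARG1 libraries lay above both controls, with FANCG, at -0.15, as the exception among the 8 core genes (background 31.2%). The summed normalised counts of the 8 core genes were 610.0 and 596 in siControl and 822 and 862.5 in siTARG1.

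The other 3 genes had values near 0. FANCI had a log2 fold change of -0.02 (SE 0.17) and FANCD2 of -0.03 (SE 0.19), and the summed counts of the pair were 511.5 and 519.7 against 523.6 and 489. BRIP1, a helicase that binds BRCA1, had a value of 0.11 (SE 0.31). The division into core and other genes follows their known roles, but it was made after the values were seen and carries no test. Over all 11 genes the median log2 fold change was 0.54, the highest of the 7 pathways, with 8 above 0. edgeR also called FANCE, FANCF, FANCL and FANCM higher. FANCB, with counts between 10.7 and 25.0, was among 5 repair genes with a mean normalised count under 50.

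**Figure D4:**
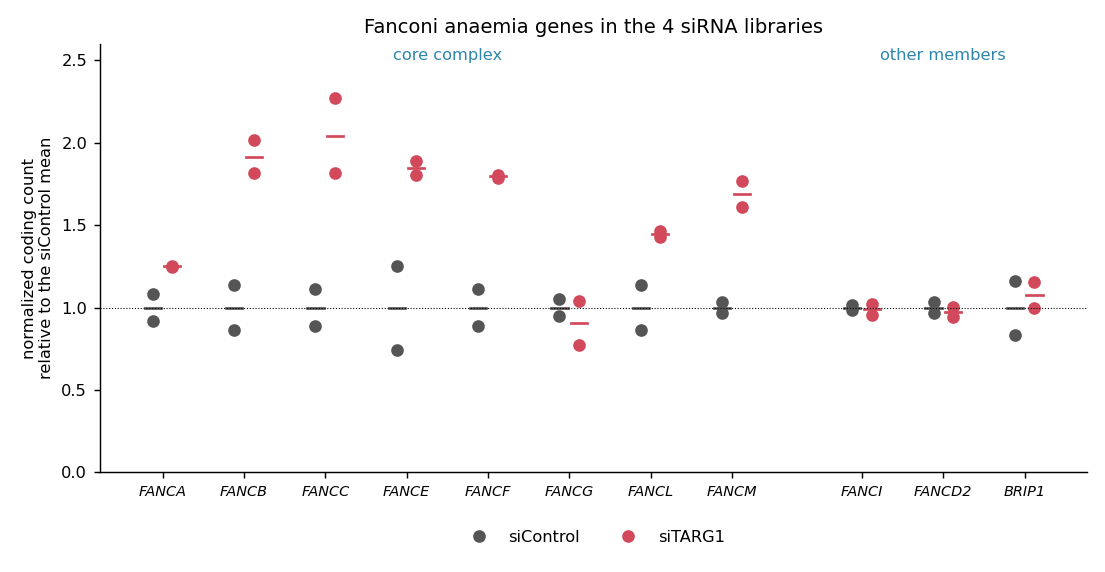
Normalised coding count relative to the mean of the 2 siControl libraries (vertical axis, points for libraries and bars for group means) for 8 core complex genes (left) and 3 other genes of the Fanconi anaemia pathway (right). All core genes but FANCG have both siTARG1 points above both siControl points, whereas FANCI, FANCD2 and BRIP1 overlap.

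Mismatch repair was represented by MSH6, MSH3 and PMS2. MSH6, part of the complex that recognises single mismatched bases, had counts of 459.7 and 497 in siControl and 618 and 697 in siTARG1. MSH6 rose by 0.46 on the log2 scale (SE 0.13, DESeq2 adjusted p = 0.00477). MSH3, its counterpart for larger loops, was lower in both siTARG1 libraries, at 139 and 139, than in the controls at 186 and 148, but did not pass the test (log2 fold change -0.27, SE 0.23). Within each library the ratio of MSH6 to MSH3 per length was 2.06 and 2.81 in siControl and 3.72 and 4.18 in siTARG1. PMS2, which nicks the strand to be replaced, had a log2 fold change of 0.16 (SE 0.18). PMS2, FANCD2 and CHEK2 have near-identical pseudogene copies and reads with up to 64 hits were kept, so their counts are uncertain.

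No nucleotide excision gene was called among 8 (background 16.4%), and log2 fold changes ran from -0.44 for ERCC4 to 0.91 for XPA. XPA, the least abundant per length, had only 3, 14, 22 and 15 counted footprints, and its SE was 0.84. ERCC4, the nuclease that cuts beside the lesion with ERCC1, had the largest fall in value after XRCC4 among genes with a mean count of at least 50. Its counts were 147 and 150.2 in siControl and 103 and 116 in siTARG1 (SE 0.25, DESeq2 adjusted p = 0.232). ERCC1 itself, the most abundant of the pathway per length, had a value of 0.08 (SE 0.21).

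In base excision repair 1 of 7 genes was called (background 16.4%). UNG, the glycosylase that removes uracil from DNA, had counts of 297 and 318 in siControl and 438 and 446 in siTARG1, with the groups apart and closely repeated. UNG rose by 0.52 on the log2 scale (SE 0.15, DESeq2 adjusted p = 0.00518). APEX1, the endonuclease that cuts at the site left by the glycosylases, was the most abundant of the pathway per length and had a value of -0.16 (SE 0.16). OGG1, which removes oxidised guanine and was the least abundant, had a value of 0.39 (SE 0.59).

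Of the 6 signalling genes, TP53BP1 alone was called (16.7%, background 16.4%). TP53BP1 binds chromatin beside a break and restrains resection of its ends. Its counts were 495.7 and 409 in siControl and 593 and 605 in siTARG1, and it rose by 0.40 on the log2 scale (SE 0.14, DESeq2 adjusted p = 0.0266). RIF1, which acts downstream of it, had a value of -0.01 (SE 0.13). The kinase genes ATM, ATR, CHEK1 and CHEK2 ranged from -0.18 to 0.11. ATM was the least and CHEK2 the most abundant of the 6 per length.

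With 4 of the 54 genes on chromosome 8, NBN, WRN and PRKDC were all called higher, and POLB, the gap-filling polymerase of base excision repair, had a value of 0.31 (SE 0.26). Over the 394 genes tested on chromosome 8 the median log2 fold change was 0.02 and 9.64% were called higher. The share called higher was 7.18% over all genes, 9.61% on chromosome 10 and 9.57% on chromosome 21. The part of the chromosome in these values was not tested. Across the 54 genes, Spearman's rho of the siTARG1 log2 fold change was -0.0824 with coding length, 0.0206 with 3′ UTR length and -0.255 with the mean count. These are descriptions over genes of the same libraries.

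In RACK1-Mut against RACK1-WT, no repair gene was called by DESeq2 (0 of 54), against a background of 0.0799% of 12520 genes tested, and none had an unadjusted p under 0.05 (background 1.64%). edgeR also called 0, with 5 at an unadjusted p under 0.05 (background 7.48%). The median log2 fold change of the 54 genes was -0.02, and 24 lay above 0. Both RACK1-Mut libraries lay above both RACK1-WT libraries for 11 genes (background 18.7%) and below both for 13 (background 18.9%). Standard errors ran from 0.07 for PRKDC to 0.47 for XPA, and the 95% interval lay within 1 log2 unit of 0 for 51 genes and within 0.5 for 32.

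The values furthest from 0 among genes with a mean count of at least 50 were those of FANCC and POLQ. FANCC had counts of 75.0 and 76.0 in RACK1-WT and 48.9 and 59.3 in RACK1-Mut (log2 fold change -0.48, SE 0.32). FANCE followed with 90.4 and 98.0 against 76.3 and 76.5 (log2 fold change -0.30, SE 0.28). Both genes were lower in both RACK1-Mut libraries, opposite to their values in siTARG1. POLQ had counts of 123 and 115 against 167 and 150.3 (log2 fold change 0.42, SE 0.22). XPC, which recognises distorted DNA in nucleotide excision repair, had 142 and 135 against 162 and 174 (log2 fold change 0.28, SE 0.21). Each of these carried an adjusted p of 1.00 in DESeq2.

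The 9 genes called after TARG1 knockdown had values close to 0 here, with FANCC as the exception. XRCC4 counts were 129.9 and 116 in RACK1-WT and 128 and 144 in RACK1-Mut, a log2 fold change of 0.14 with a 95% interval from -0.31 to 0.59. NBN, at 327 and 309 against 357 and 319, had an interval from -0.21 to 0.38. WRN had an interval from -0.29 to 0.43 and MSH6 from -0.15 to 0.26. UNG ran from -0.33 to 0.20, TP53BP1 from -0.37 to 0.09, PRKDC from -0.17 to 0.11 and XRCC5 from -0.17 to 0.13. FANCC alone had a bound past 1 log2 unit, at -1.11.

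Whether the log2 fold changes of the 2 comparisons differed was tested directly as a contrast over all 8 libraries. The 2 experiments also differed in cells, drug selection and doxycycline. A called difference can therefore not be assigned to the TARG1 knockdown and the RACK1 mutation alone. DESeq2 called 9 repair genes (16.7%, background 12.3%). Of these, 7 had a higher log2 fold change in siTARG1 than in RACK1-Mut (13.0%, background 5.43%). The other 2 had a lower one (3.70%, background 6.91%). These are differences between fold changes, not between the levels of the siTARG1 and RACK1-Mut groups. XRCC4 (difference of log2 fold changes -2.06, SE 0.41, adjusted p = 2.00e-05) and XRCC5 (-0.31, SE 0.09) were the lower ones. The higher ones were FANCC (1.52, SE 0.44), FANCE (1.17, SE 0.40), NBN (0.92, SE 0.26), WRN (0.90, SE 0.26), UNG (0.60, SE 0.18), TP53BP1 (0.55, SE 0.17) and MSH6 (0.41, SE 0.15). FANCE was also called in siTARG1 against siControl when DESeq2 was fitted on all 8 libraries, but not on the 4 libraries of that comparison (adjusted p = 0.0658). edgeR called 11 repair genes (background 20.8%). PRKDC, at 0.24 (SE 0.09), fell short in DESeq2 (adjusted p = 0.0537). The number of calls without 1 library ran from 2 without siTARG1 replicate 1, RACK1-WT replicate 1 or RACK1-Mut replicate 2, through 3 without siControl replicate 2 and 4 without siTARG1 replicate 2, RACK1-WT replicate 2 or RACK1-Mut replicate 1, to 5 without siControl replicate 1.

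Per length, the end joining genes spanned the widest range of levels among the 7 pathways. XRCC5 had a mean level of 375 over the 8 libraries (297 to 484) and POLQ of 2.82 (1.56 to 4.16), a span of 133-fold within 1 pathway. In base excision repair APEX1 averaged 129.6 (101 to 160) and OGG1 7.21 (2.57 to 10.0). In nucleotide excision repair ERCC1 averaged 52.4 and XPA 5.78. FANCL led the Fanconi anaemia pathway at 40.9 (30.0 to 55.9), and FANCM was lowest at 2.41. MSH6 averaged 39.4 and MSH3 13.2. CHEK2 averaged 31.3 and ATM 5.32. In homologous recombination RAD50 had the highest mean, at 23.0 (21.8 to 28.0), and BRCA2 was lowest at 1.99 (0.899 to 2.77).

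NBN stood out for its distance between the experiments. Its level was 7.76 and 9.11 in siControl, 16.8 and 18.5 in siTARG1, 28.3 and 27.0 in RACK1-WT, and 31.6 and 28.1 in RACK1-Mut. Within each library the ratio of NBN to RAD50 was 0.352 and 0.325 in siControl and 0.771 and 0.820 in siTARG1. It was 1.25 and 1.23 in RACK1-WT and 1.42 and 1.22 in RACK1-Mut, so that siControl lay below the other 6 libraries. The ratio of MRE11 to RAD50 spanned a smaller range, from 0.520 to 1.11. The cell lines, doxycycline and the experiments cannot be told apart in this difference.

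The Ku subunits also kept different ratios in the 2 experiments. XRCC5 to XRCC6 was 1.74 and 1.87 in siControl, 1.48 and 1.51 in siTARG1, 1.30 and 1.25 in RACK1-WT, and 1.37 and 1.41 in RACK1-Mut. PRKDC to XRCC6 was 0.259 to 0.260 in siControl and RACK1-WT alike, 0.311 and 0.310 in siTARG1, and 0.278 and 0.282 in RACK1-Mut. XRCC4 to XRCC6 was 0.0757 and 0.0878 in siControl, against 0.0281 and 0.0152 in siTARG1. It lay between 0.0954 and 0.127 in the 4 RACK1 libraries, so that both siTARG1 libraries were below all 6 others.

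**Figure D5:**
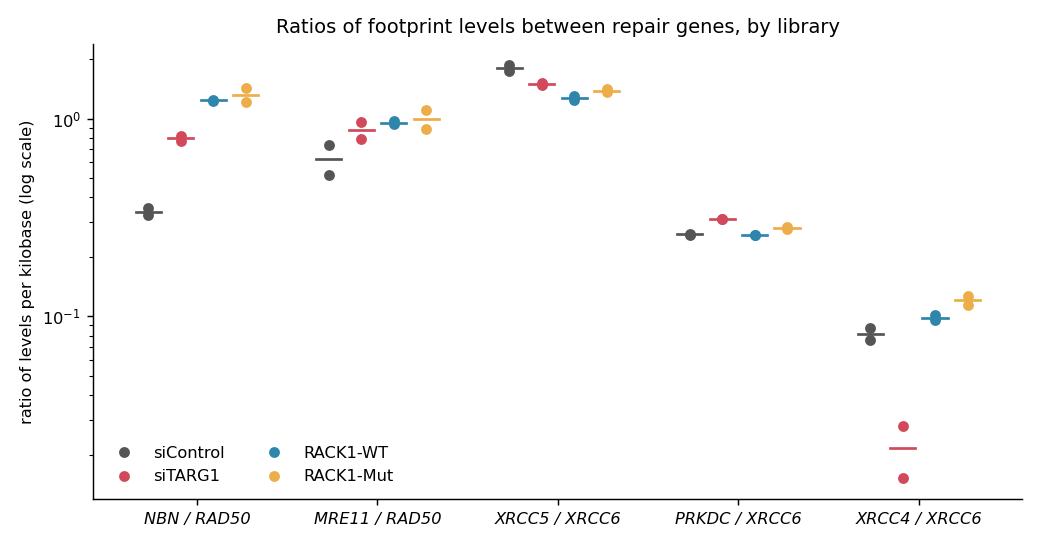
Ratio of footprint levels per kilobase (log scale) between repair genes in each of the 8 libraries (points) with group means (bars). NBN to RAD50 is lowest in siControl, at 0.352 and 0.325, and XRCC4 to XRCC6 is lowest in siTARG1, at 0.0281 and 0.0152.

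Few footprints of the repair genes lay outside the coding sequence, and the exceptions named here were chosen after their values were seen. Over all genes, 5′ UTRs took 3.85% to 4.34% of the counts in the 3 regions (5′ UTR, coding sequence and 3′ UTR) and 3′ UTRs 0.666% to 1.87%. XRCC3, a recombination mediator, had a 5′ UTR share between 11.7% (13 of 111 counts, 95% Wilson interval 6.97% to 19.0%) and 25.5% (14 of 55, 15.8% to 38.3%). EXO1, the nuclease that resects ends and excises mismatched strands, had a share between 8.05% (7 of 87, 3.95% to 15.7%) and 19.1% (18 of 94, 12.5% to 28.3%). In both genes every library lay above the share of all genes. For LIG3, the ligase of base excision repair, 3′ UTR counts made up between 6.67% (13 of 195, 3.94% to 11.1%) and 9.84% (18 of 183, 6.31% to 15.0%) in all 8 libraries. These intervals cover counting error only, and they overlap between groups.

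A further 88 genes of the same pathways were read in the same way. They were listed from their textbook roles, with earlier results of these data known. In siTARG1, DESeq2 called 20 of the 86 tested (23.3%, background 16.4%), 13 higher (15.1%, background 7.18%) and 7 lower (8.14%, background 9.19%), with a median log2 fold change of 0.17. In RACK1-Mut, DESeq2 called 0 of 87 (background 0.0799%), and 2 had an unadjusted p under 0.05 (background 1.64%). All 9 further genes listed under mismatch repair had siTARG1 values above 0 (background 50.4%), and 3 were called higher. POLD1, the polymerase delta catalytic subunit, rose by 0.48 (SE 0.16). LIG1, the replicative ligase, rose by 0.41 (SE 0.15), and PCNA, the sliding clamp, by 0.37 (SE 0.13). These 3 also belong to DNA replication, and PMS1 of the same list was not called (0.30, SE 0.28). In base excision repair 3 of 15 fell, among them the glycosylases MBD4 (-0.89, SE 0.24) and MPG (-0.79, SE 0.28), while the flap nuclease FEN1 rose (0.38, SE 0.11). In nucleotide excision repair 11 of 16 lay below 0, with the ubiquitin ligase scaffold CUL4A (-0.65, SE 0.14) and the TFIIH subunit GTF2H5 (-0.95, SE 0.35) called lower and the damage-binding subunit DDB1 (0.24, SE 0.09) higher. Among 15 signalling genes 4 rose and 1 fell. CLSPN, an adaptor of the ATR pathway (0.69, SE 0.20), and MDC1, the scaffold at broken chromatin (0.62, SE 0.15), had the largest values of these. The 18 further recombination genes held 3 that rose and 1 that fell, and the 8 further Fanconi anaemia genes held 1 that rose, USP1 (0.61, SE 0.18), which removes ubiquitin from FANCD2. None of the 5 further end joining genes was called.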

How the data were processed

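Ribo-seq libraries were made from RNase I footprints cut from a gel at 28 to 34 nt. The deposited counts and RPKM were made by the authors with Plastid from reads of 26 to 36 nt, an offset of 14 nt per the file headers, TopHat 2.1.1 and Bowtie 1.1.2 (up to 64 hits per read), hg19/GRCh37 and GENCODE 24. The linker carried molecular identifiers, and how they were collapsed is not given in the sources used here. The authors' RPKM were not used. Coding-sequence counts were analysed here, and 19612 of 20165 regions were named through GENCODE 44 lifted to GRCh37. Each comparison was fitted with DESeq2 1.42.0 in R 4.3.3 (Wald test, median-of-ratios, at least 10 counts over its 4 libraries, Benjamini-Hochberg over all genes). edgeR 4.0.16 and other alternatives are described in the closing section, and the fits were tested on simulated data. The members and lists were chosen with earlier results of these data known. Genes named in full were those called, plus the 2 highest and 2 lowest values per comparison at a mean count of at least 50, with the most and least abundant per length in each pathway. Levels are coding counts per 1000 coding bases and per 1000000 coding counts. Library totals of 3100947 to 6604190 left the scarcest repair genes with few counts. Sequences of chromosome 8 genes were not printed, and a gene and a site are not reported here.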

Additional observations from a re-analysis of the deposited data

How the results depend on the processing

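In siTARG1 against siControl, where DESeq2 called 9 repair genes, edgeR called 18 and a required log2 change of at least 1 left 2. Leaving out each library in turn gave 1 to 2 calls. All 9 genes kept the sign of their change under the 12 alternatives run for each, and the highest adjusted p ranged from 0.0661 for XRCC4 to 0.577 for FANCC. The other alternatives gave 8 to 13 calls. The labels do not say whether libraries with the same replicate number were handled together. Their deviations from the group means had correlations of 0.0306 in the siRNA experiment and 0.0829 in the RACK1 experiment, which cannot settle this. With the replicate number added to the model as a block, calls were 5 in siTARG1, 0 in RACK1-Mut and 1 (XRCC4) in the contrast between the effects. The siTARG1 calls lost were FANCC, UNG, PRKDC and TP53BP1. In that contrast, leaving out each library gave 2 to 5 calls, and the other alternatives 8 to 11. RACK1-Mut gave 0 calls under each alternative run. The median log2 fold change of the 54 genes ranged from 0.109 to 0.181 over left-out libraries in siTARG1 and from -0.014 to -2.16e-05 in RACK1-Mut. The 95% interval of the log2 fold change lay within 1 log2 unit of 0 for 39 of the 54 genes in siTARG1 and 51 in RACK1-Mut, and the least counted genes had the widest intervals. The cause of these shifts was not tested.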

Other observations

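Some genes of DNA replication and mitosis also differed between siTARG1 and siControl. Of 29 S phase and mitosis genes, DESeq2 called 7 (24.1%, background 16.4%). Higher were 2 (6.90%, background 7.18%) and lower were 5 (17.2%, background 9.19%), and these shares were not tested. MCM3, a subunit of the replicative helicase, rose from normalised counts of 628 and 467 to 1183 and 1195 (log2 fold change 1.11, SE 0.13). MKI67, a proliferation marker, fell from 881 and 824 to 504 and 521 (-0.74, SE 0.12). AURKA, a mitotic kinase, fell from 346 and 349 to 225 and 220.4 (-0.64, SE 0.17). CDC20, an activator of the anaphase-promoting complex, fell from 831 and 775 to 607 and 541 (-0.48, SE 0.12). In RACK1-Mut 0 of the 29 were called (background 0.0799%), with 22 below 0 and a median log2 fold change of -0.06. The part of cell cycle position in the repair gene values was not tested.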
